A study of Homo sapiens with 12 samples.

Results

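The cells described here carried a knockdown of TEDC2 (listed in the files under its older name, C16orf59), combined with a knockdown of each of the other genes of the library in turn, and grew without drug. The library held 543 genes, and all but TEDC2 are its partners here. Each gene had 2 sgRNAs, and each pair of genes was read from 8 constructs, so that 4336 of the 1301881 constructs of the library joined a TEDC2 sgRNA to a sgRNA of a partner. TEDC2 was selected on its growth values from T0 to the reference endpoint in these libraries. Every growth value below is therefore a description, and the calls made on it support nothing by themselves.

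The cells were K562, a human leukemia line, here with CRISPR interference machinery that blocks transcription near the site a sgRNA names. Each construct was carried by a lentivirus and expressed 2 sgRNAs, and its abundance was read by sequencing the sgRNA cassettes from genomic DNA. The reference arm received DMSO and was collected on day 18 after transduction in the 2022 screen and on day 19 in the 2023 screen. T0 was day 9 of the same cultures, and the 2 screens had 2 replicate cultures each, which gives 4 cultures and 8 libraries. A further arm, used only at the end, received niraparib, an inhibitor of the enzymes PARP1 and PARP2, at 2 µM for 3 days in 2022 and at 2 and then 3 µM over 4 days in 2023. All arms carried the same library, including 55 non-targeting sgRNAs. What these libraries share limits them as a model: 1 cell line, 2 sgRNAs per gene, no measure of how far each gene was knocked down, and growth counted only after day 9, so that loss of cells before then is not seen.

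TEDC2 works with TEDC1, delta-tubulin and epsilon-tubulin in a complex that centrioles need for their compound microtubules. Human cells without that complex make centrioles that do not last through mitosis, so that they are lost and made anew in each cycle. Centrioles organise the centrosomes, which help to build the mitotic spindle.

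The promoters of 4 genes that the results turn on are printed first, because CRISPR interference acts at the start of a gene: TEDC2 itself, the partners CCNB1 and CENPF, which stood lowest, and HAUS1, which stood highest. Each line is the 250 bases before the RefSeq gene start on the plus strand of GRCh38.p14, and capitals mark the 5 letters CCAAT on either strand (ATTGG on the strand shown), a box common in promoters of genes used in mitosis.
TEDC2: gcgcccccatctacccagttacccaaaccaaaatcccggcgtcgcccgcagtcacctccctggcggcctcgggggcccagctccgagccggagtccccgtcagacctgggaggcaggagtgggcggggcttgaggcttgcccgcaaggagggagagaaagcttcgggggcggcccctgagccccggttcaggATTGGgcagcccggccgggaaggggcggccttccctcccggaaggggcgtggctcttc
CCNB1: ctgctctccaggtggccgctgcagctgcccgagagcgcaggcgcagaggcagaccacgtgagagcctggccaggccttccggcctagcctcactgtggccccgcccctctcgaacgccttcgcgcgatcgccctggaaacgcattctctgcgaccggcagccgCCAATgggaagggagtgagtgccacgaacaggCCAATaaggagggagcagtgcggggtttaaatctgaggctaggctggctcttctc
CENPF: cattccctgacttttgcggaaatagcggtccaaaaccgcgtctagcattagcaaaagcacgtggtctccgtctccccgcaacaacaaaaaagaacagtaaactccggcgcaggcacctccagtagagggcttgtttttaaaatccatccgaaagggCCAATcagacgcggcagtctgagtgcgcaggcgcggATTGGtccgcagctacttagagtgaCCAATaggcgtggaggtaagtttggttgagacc
HAUS1: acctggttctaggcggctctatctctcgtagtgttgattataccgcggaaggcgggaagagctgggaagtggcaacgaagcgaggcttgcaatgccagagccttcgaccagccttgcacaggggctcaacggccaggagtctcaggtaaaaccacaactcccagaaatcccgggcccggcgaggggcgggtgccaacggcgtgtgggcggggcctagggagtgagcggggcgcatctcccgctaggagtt
The TEDC2 window lies at chr16:2459859-2460108 and holds 1 box, which begins 58 bases before the start of a gene that spans chr16:2460109-2464963. The CCNB1 window, chr5:69166900-69167149, holds 2 boxes, and the CENPF window, chr1:214602945-214603194, holds 3. The HAUS1 window, chr18:46104135-46104384, has none of these letters, which says nothing about any factor there. Such a box stands in 32.0% of 35116 human promoter windows of the same length and in 39.6% of the 644 windows of library genes. The names of the TEDC2 sgRNAs give plus-strand positions 2510134 and 2510151 on a build not given in the sources used here, so they were not placed on these sequences.

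TEDC2 knockdown alone reduced growth. With non-targeting sgRNAs, over 220 constructs, its log2 change from T0 to the reference endpoint was -1.33 and -1.26 in the 2022 cultures and -1.38 and -1.39 in the 2023 cultures, a mean of -1.34 ± 0.06 (SD, n = 4), where 0 is the level of constructs with 2 non-targeting sgRNAs. All 4 cultures lay close together. Sorted from the lowest growth, TEDC2 ranked 92 of 543 genes, whose median was -0.46. Its 2 sgRNAs gave means of -1.30 and -1.38, and its value was -1.34 with the TEDC2 sgRNA in either position of the construct.

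For each partner, growth in the TEDC2 background means the log2 change of the pair relative to TEDC2 with non-targeting sgRNAs, and own growth means the log2 change of the partner with non-targeting sgRNAs relative to non-targeting pairs. The difference is the first minus the second, so that 0 means that both knockdowns add on the log2 scale. A partner was called where edgeR's quasi-likelihood fit over all 147144 gene pairs with a mean T0 sum of at least 80 reads gave an adjusted p under 0.05. All partners passed that filter, with mean T0 sums of 330 to 4670 reads and a median of 2587. As a yardstick, the 55 non-targeting sgRNAs taken 1 at a time as partners, from 4 constructs each, had mean differences of -0.17 to 0.15, and 95% of them lay between -0.12 and 0.12. The SD of a partner's difference over the 4 cultures was 0.01 to 0.43, with a median of 0.09.

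Most partner knockdowns that slow growth by themselves slowed it less in TEDC2-depleted cells. Of all partners, 308 (56.8%) were called higher in the TEDC2 background and 22 (4.06%) lower, while over all gene pairs of the library 39.5% were called higher and 3.19% lower. The median difference was 0.15 over TEDC2 partners and 0.08 over all gene pairs. The share depends on how the libraries are scaled to each other. TMM factors were set in place of the non-targeting pairs, while the expectation kept each gene's counts with non-targeting sgRNAs. The median of all gene pairs was then -0.03 in place of 0.08. The calls among TEDC2 partners were 233 higher and 121 lower with TMM factors, and 65.8% of calls were higher, against 93.3% with the non-targeting pairs.

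The difference followed the partner's own growth. All 26 partners with own growth below -2 were called higher, with a median difference of 0.97, and so were 118 of the 120 partners with own growth between -2 and -1, with a median of 0.51. The median was 0.26 for the 116 partners between -1 and -0.5, and 0.07 for the 142 between -0.5 and -0.1. For the 130 partners within 0.1 of 0 it was 0.00, with 7 called lower and 5 higher. The 8 partners whose knockdown sped growth by over 0.1 had a median of -0.14, and 5 of them were called lower. Across partners, which share their libraries and are not independent, the difference and own growth had a Pearson r of -0.90 and a Spearman rho of -0.89 over all partners, and own growth also enters the difference itself. A curve of degree 2 through all partners put growth in the TEDC2 background at -0.63 where own growth was -1, and at -1.27 where own growth was -2.

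Because of this trend, a second value is given beside the difference: the residual from curves of degree 2, averaged over the curve of TEDC2 and the curve of the partner and tested with limma over the same gene pairs. By this residual 183 partners (33.8%) were called lower and 5 (0.923%) higher, against 5.29% lower and 4.54% higher over all gene pairs. The median residual was -0.08 over TEDC2 partners and 0.00 over all gene pairs, and 0.01 over TEDC2 partners from the TEDC2 curve alone. Of the 22 partners called lower by the difference, 16 (72.7%) were among the 183 called lower by the residual (8.74% of those). Of the 308 called higher by the difference, 4 (1.30%) were among the 5 called higher by the residual (80% of those).

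The lowest differences were those of CCNB1 and CENPF. CCNB1 encodes cyclin B1, which activates CDK1 for entry into mitosis. CCNB1 knockdown gave -0.69, -0.80, -0.86 and -0.84 in the TEDC2 background (2022 cultures, then 2023), against -0.08, -0.03, -0.03 and -0.04 with non-targeting sgRNAs. Alone it left growth near the non-targeting level in every culture, and in TEDC2-depleted cells it lowered growth in every culture, so the backgrounds did not overlap. The fitted difference was -0.75 ± 0.04 (SE), the lowest of all partners, and the residual from the curve was -0.76. The double knockdown itself stood at -2.14 ± 0.11 relative to non-targeting pairs (SD, n = 4). All 4 combinations of a TEDC2 sgRNA with a CCNB1 sgRNA were below 0, from -1.02 to -0.59.

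CENPF encodes a large coiled-coil protein of the outer kinetochore and nuclear envelope that binds microtubules. In the TEDC2 background CENPF knockdown gave -0.87, -0.82, -0.89 and -0.98, against -0.32, -0.29, -0.34 and -0.33 with non-targeting sgRNAs. Every culture was lower in TEDC2-depleted cells, with no overlap. The fitted difference was -0.57 ± 0.04 (SE) and the residual -0.62, and the 4 sgRNA combinations ran from -0.66 to -0.49.

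TIPRL, a protein that binds the catalytic subunits of PP2A, PP4 and PP6 phosphatases, gave -0.46, -0.46, -0.50 and -0.53 in the TEDC2 background, against -0.11, -0.15, -0.11 and -0.13 with non-targeting sgRNAs. The backgrounds did not overlap, and the fitted difference was -0.36 ± 0.04 (SE). GPS2, a subunit of the NCoR and SMRT corepressor complexes, differed in kind, because its knockdown sped growth with non-targeting sgRNAs. GPS2 knockdown gave 0.01, 0.07, 0.10 and 0.14 in the TEDC2 background, against 0.40, 0.47, 0.58 and 0.57 with non-targeting sgRNAs. Every TEDC2-depleted culture was lower, the difference was -0.43 ± 0.03 (SE), and the residual, which allows for the slope of the curve, was -0.15.

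The next 8 of the 12 lowest had smaller differences. CBL, which tags activated tyrosine kinase receptors with ubiquitin, KICS2 (C12orf66), a subunit of the KICSTOR complex that restrains mTORC1, and MTF2, an accessory factor of Polycomb complex PRC2, are further genes whose knockdown sped growth. CBL stood at 0.17 ± 0.07 in the TEDC2 background and at 0.38 ± 0.06 with non-targeting sgRNAs (SD, n = 4 here and below). KICS2 stood at 0.54 ± 0.13 in the TEDC2 background and at 0.75 ± 0.11 with non-targeting sgRNAs. MTF2 stood at 0.12 ± 0.03 in the TEDC2 background and at 0.30 ± 0.06 with non-targeting sgRNAs. All 3 kept growth above 0 in TEDC2-depleted cells. The residuals of CBL and KICS2, -0.07 and 0.08, were not called. LIN37 had a difference of -0.23, and SMG6, an endonuclease of nonsense-mediated decay, had -0.18. RNF8, a ubiquitin ligase at DNA breaks, had -0.15, and ETAA1, an activator of the ATR kinase, had -0.13. Each was lower in all 4 cultures, which the rule for the 12 lowest required. The RNF8 and ETAA1 differences lay within the range of single non-targeting sgRNAs, -0.17 to 0.15, which were read from 4 constructs each. The LIN37 difference ran from -0.38 to -0.15 over the cultures, and that of ETAA1, from -0.24 to -0.06, was no longer called without replicate 1 of 2023, at -0.10. With the TEDC2 sgRNA in 1 position only, the calls of LIN37 (-0.15, first position), RNF8 (-0.11, first position) and SMG6 (-0.08, second position) were lost as well. BAP1, a deubiquitinase of histone H2A, had a difference of -0.23, but 1 of its sgRNAs, with own growth of 0.04, gave a difference of 0.00, and the other, with own growth of -0.27, gave -0.54.

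HAUS1 had the highest difference. It is a subunit of augmin, which starts new microtubules along those of the spindle. HAUS1 knockdown gave -0.72, -0.82, -1.13 and -0.65 in the TEDC2 background, against -2.24, -2.20, -2.41 and -2.55 with non-targeting sgRNAs. The least affected culture with non-targeting sgRNAs was still far below every TEDC2-depleted culture. The fitted difference was 1.52 ± 0.13 (SE), and the residual, 0.45, was 1 of the 5 called higher. Relative to non-targeting pairs the double knockdown stood at -2.17 ± 0.23, against -2.35 ± 0.16 for HAUS1 alone (SD, n = 4), so that the pair and HAUS1 alone differed by less than the spread of the cultures of the pair. HAUS1 pairs were thinly read, with 475 reads at T0 and 221 at the reference endpoint on average. Their 4 sgRNA combinations all lay above 0, from 1.35 to 1.77.

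The other 11 of the 12 highest came from many processes, and none of them was called by the residual. They were CAD, the first enzyme of pyrimidine synthesis (1.29), IPO13, a nuclear transport receptor (1.18), MCM2 of the replicative helicase (1.17), NSMCE3 (NDNL2) of the SMC5-SMC6 complex (1.16), SSBP1, which coats single-stranded mitochondrial DNA (1.08), and NUP54 of the nuclear pore (1.08). NOL6, a ribosomal RNA processing factor (1.07), DCTN3 of dynactin (1.06), TAF2 of TFIID (1.03), CLSPN, the mediator between ATR and CHK1 (1.02), and MICOS10 (MINOS1) of the mitochondrial inner membrane (1.00) completed them. With non-targeting sgRNAs these 11 partners had own growth of -1.44 (CLSPN) to -4.09 (CAD). CAD knockdown gave -2.78, -2.42, -3.01 and -2.91 in the TEDC2 background, against -3.80, -3.81, -4.32 and -4.44 with non-targeting sgRNAs, and the loss was smaller in every TEDC2-depleted culture. CAD pairs were thinly read at the reference endpoint, with 161 and 195 reads in 2022 and 69 and 72 in 2023. The NOL6 difference spread over 0.65 to 1.67 among the cultures, on a mean of 68 reads per library at the reference endpoint. Residuals ran from -0.17 for DCTN3 to 0.14 for CLSPN. The remaining partners called higher by the residual were NCAPG2 of condensin II (0.16), RANBP3 (0.19), HNRNPDL (0.20) and HMGXB3 (0.12).

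Centriole partners were 3 in number, and all were called higher by the difference, as were 56.8% of all TEDC2 partners. So were 106 of the 116 partners with own growth between -1 and -0.5, where STIL and CEP135 lay. Between -2 and -1, where CEP63 lay, 118 of 120 were called higher. The 3 centriole partners act early in centriole assembly: STIL binds the kinase PLK4 and SAS-6, CEP135 ties the cartwheel to the microtubules, and CEP63 helps to bring PLK4 to the parent centriole. STIL knockdown gave -0.65 ± 0.07 in the TEDC2 background and -0.90 ± 0.08 with non-targeting sgRNAs, a difference of 0.25. CEP135 knockdown gave -0.41 ± 0.05 in the TEDC2 background and -0.94 ± 0.05 with non-targeting sgRNAs, a difference of 0.53. Neither gene's backgrounds overlapped.

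CEP63 departed from the other two. CEP63 knockdown gave -1.29, -1.31, -1.63 and -1.55 in the TEDC2 background, against -1.51, -1.50, -1.69 and -1.65 with non-targeting sgRNAs. The cultures of the 2 backgrounds overlapped between screens, although within each culture the TEDC2 background was higher. The fitted difference was 0.15, and the residual, -0.63, was among the lowest of all partners, behind that of CCNB1 alone. Its 2 sgRNAs gave differences of -0.04 and 0.43, and the direction turned, to -0.03, with the TEDC2 sgRNA in the first position only. Without replicate 1 or replicate 2 of 2022 it was 0.13 and not called. The residuals of STIL and CEP135 were -0.23 and 0.09, of which only that of STIL was called.

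Among the 5 mitotic kinases and regulators measured, 2 were called higher (PLK1 and BUB3), 1 lower (CCNB1) and 2 were not called (AURKA and CDK1). Over all TEDC2 partners 56.8% were called higher and 4.06% lower. AURKA, the spindle pole kinase, gave -0.88, -1.25, -1.40 and -1.02 in the TEDC2 background, against -1.14, -1.04, -1.21 and -1.21 with non-targeting sgRNAs. The 2 sets overlapped, and the fitted difference was 0.02 ± 0.08 (SE) with both signs among the cultures. The partners with own growth near that of AURKA were mostly higher, and the AURKA residual was accordingly -0.61, which was called. PLK1, which drives many steps of mitosis, gave -0.06, 0.10, -0.46 and -0.24 in the TEDC2 background, against -0.92, -0.84, -0.93 and -0.94 with non-targeting sgRNAs. Its difference of 0.76 ± 0.13 (SE) rested on a mean of 330 reads at T0, at the low end of all partners, and its residual was 0.00. BUB3, a spindle checkpoint protein, had a difference of 0.38 and a residual of -0.24. CDK1, the kinase that cyclin B1 activates, had a difference of 0.05 with both signs among the cultures, and CCNB2, another B-type cyclin, had 0.03. Each value averages sgRNAs that differed. For CDK1, the sgRNA with own growth of -0.07 gave -0.15 and the one with own growth of -1.07 gave 0.35. For CCNB2, the sgRNA with own growth of -0.05 gave -0.02 and the one with own growth of -1.51 gave 0.63. The AURKA sgRNAs gave 0.21 and -0.20. Neither CDK1 nor CCNB2 was called, in contrast to CCNB1, whose difference from CCNB2 or CDK1 was not tested.

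Of 3 centromere proteins, CENPF was called lower and 2 higher: HJURP, the chaperone of the centromeric histone CENP-A (0.99), and CENPM of the inner kinetochore (0.66). HJURP knockdown gave -1.96, -2.09, -2.49 and -2.08 in the TEDC2 background, against -2.97, -2.97, -3.37 and -3.29 with non-targeting sgRNAs. Every TEDC2-depleted culture was higher. All 3 were called lower by the residual, at -0.62, -0.32 and -0.17. Over all TEDC2 partners 33.8% were called lower by the residual, and by the difference 56.8% were called higher and 4.06% lower. Dynein carries cargo toward centrosomes with the help of dynactin. Of 5 such partners, DCTN3 (1.06), DCTN1 (0.40) and DCTN5 (0.19) were called higher, beside 56.8% of all TEDC2 partners. The light chains DYNLL1 (0.08) and DYNLRB1 (0.05) were not called and turned below 0 under TMM scaling. DCTN3 knockdown gave -1.58, -1.71, -2.40 and -2.14 in the TEDC2 background, against -2.79, -2.74, -3.24 and -3.26 with non-targeting sgRNAs, with no overlap. DCTN5 had both signs among its cultures and was not called without replicate 1 of 2022 (0.09) or of 2023 (0.17). TP53BP1, which acts at DNA breaks and in mitotic surveillance, had a difference of 0.07 that was not called, and its own growth with non-targeting sgRNAs was -0.20.

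3 further groups were put together after the values were seen, and their counts are descriptions only. These counts stand against 56.8% called higher and 4.06% called lower over all TEDC2 partners. Among 14 cyclins, CDKs and their regulators, 2 were called higher, CCNB1 was the 1 called lower and 11 were not called, with a median difference of 0.04. MuvB is the core of the DREAM complex, which represses cell cycle genes, and of the B-MYB and FOXM1 complexes, which activate mitotic genes such as CCNB1 and CENPF. The group of 10 partners held LIN9, LIN37, LIN52, LIN54, RBBP4, MYBL2 and FOXM1, and also RB1, E2F2 and E2F7 from outside these complexes. In this group LIN37 (-0.23) and LIN9 (-0.15) were called lower. A further 4 were called higher, among them LIN52 (0.78) and MYBL2 (0.21), and LIN54 (-0.03) and FOXM1 (0.00) were not called. Among 7 partners of PP2A and PP4, TIPRL (-0.36) and the PP4 catalytic subunit PPP4C (-0.12) were called lower, and 3 were called higher, including the PP2A scaffold PPP2R1A (0.35) and catalytic subunit PPP2CA (0.31). The residual of PPP4C, -0.48, was close to that of TIPRL, -0.49. The differences of LIN9 and PPP4C lay within the range of single non-targeting sgRNAs, -0.17 to 0.15.

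The counts of the remaining lists stand against 56.8% called higher and 4.06% called lower by the difference over all TEDC2 partners, and 33.8% called lower by the residual. Of 27 replisome and clamp loader partners, 21 were called higher and none lower, with a median difference of 0.38, and MCM2 (1.17) and PCNA (-0.02) were the extremes. By the residual 6 of them were called lower and none higher. All 6 partners of ribosomal RNA processing were called higher, from 0.12 (UTP23) to 1.07 (NOL6), and 4 of them were called lower by the residual, with a median of -0.18. UTP23 was not called with TMM factors, at 0.02. Both SMC5-SMC6 partners, SMC6 (0.66) and NSMCE3 (1.16), were called higher, and neither was called by the residual. Of 26 homologous recombination partners, 19 were called higher and none lower, from MCM9 (-0.01) to BARD1 (0.50), and 4 were called lower by the residual. Of 15 Fanconi anemia partners 6 were called higher, from FANCD2 (-0.03, not called) to WDR48 (0.32), and 3 were called lower by the residual. Among 11 partners of the 9-1-1 clamp and ATR-CHK1 checkpoint, 8 were called higher and ETAA1 lower, and 8 were called lower by the residual, including RAD9A (-0.26), CHEK1 (-0.24), ATR (-0.23) and HUS1 (-0.21). Of 7 cohesin and condensin partners 3 were called higher, from DDX11 (-0.03, not called) to NCAPG2 (0.29), and 1 was called lower by the residual. Of 6 Polycomb partners MTF2 alone was called, BMI1 being the highest at 0.05, and of the 2 genes that restrain mTORC1, KICS2 was called and TSC1 (-0.04) was not.

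Within the TEDC2 background itself, 405 partners were below 0 in all 4 cultures and 19 above. The lowest were CAD (-2.78 ± 0.26), HJURP (-2.15 ± 0.23), NOL6 (-2.12 ± 0.34), the maintenance DNA methyltransferase DNMT1 (-2.11 ± 0.26), GEMIN2 of the SMN complex (-2.05 ± 0.08) and HSD17B12, an enzyme of fatty acid elongation (-1.97 ± 0.25). The highest were KICS2 (0.54 ± 0.13), HMGXB3 (0.25 ± 0.04), COPS9 (MYEOV2), a subunit of the COP9 signalosome (0.21 ± 0.09), ZNF131 (0.21 ± 0.08), CBL (0.17 ± 0.07) and MTF2 (0.12 ± 0.03; SD, n = 4 each). ZNF131 differed between backgrounds: with non-targeting sgRNAs it stood at -0.04 ± 0.05, and its difference of 0.24 came from 1 of its 2 sgRNAs (0.32, against 0.01 for the other). The library gene nearest to TEDC2 by the positions in the sgRNA names, ATP6V0C, 54047 bases away on the same chromosome, had a difference of 0.46, with growth of -0.49 ± 0.12 in the TEDC2 background and -0.95 ± 0.09 with non-targeting sgRNAs.

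No difference was called as unequal between the screens. The test of 2023 minus 2022 called none of the TEDC2 partners by edgeR's quasi-likelihood test, with 45 at an unadjusted p under 0.05, and called 0.0122% of all gene pairs lower and 0.0251% higher in 2023. A missed threshold does not show that the screens were equal. The 2022 reference replicates differed most, with a chi-square per degree of freedom of 24.0 over all gene pairs, against 2.25 to 6.2 for the other replicate pairs. Libraries held 182552286 to 460723933 reads in all.

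The profile of residuals over shared partners was compared between TEDC2 and every other gene by Pearson r, as a description without a p, since all profiles share libraries. The most alike were PPP2R1A (0.46), CEP135 (0.41), CENPF (0.41), the PP2A regulatory subunit PPP2R2A (0.37) and UHRF1, which guides DNMT1 to replicated DNA (0.34). PPP2R1A was the most alike in the 2022 cultures and in the 2023 cultures taken alone, at 0.41 and 0.34. CENPF was at 0.40 in 2022 and 0.29 in 2023, and UHRF1 at 0.24 and 0.29. With the plain difference in place of the residual the order changed: PPP2R1A then ranked 45 and CENPF 463 among the other genes. High values were then common: PPP2R1A stood at 0.89, behind genes of other processes such as NOP10, TAF2 and GEMIN2, at 0.92 each.

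The niraparib arm was not used in choosing TEDC2, although it shares its reference libraries with the growth values, so that an error in a reference library moves both in opposite directions. TEDC2 with non-targeting sgRNAs was less depleted with niraparib than without, by 0.46 ± 0.05 on the log2 scale (SD, n = 4). The response of a partner is its log2 ratio of niraparib over reference endpoint, taken in both backgrounds as above. Dose and days in niraparib differed between the screens, so the SD of a response over the 4 cultures also holds that difference. The fit used a niraparib term shared by both screens, and a difference between screens in response was not tested. By edgeR's quasi-likelihood test 152 partners (28.0%) fell and 79 (14.6%) rose in response in the TEDC2 background relative to non-targeting sgRNAs, against 8.91% and 14.1% of all gene pairs. The share that fell was thus above that of all pairs, and the share that rose was close to it.

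The 5 partners whose response rose most were repair genes known to protect cells from PARP inhibitors: BARD1, the partner of BRCA1, FANCB and FANCD2 of the Fanconi anemia pathway, RBBP8 (CtIP), which starts resection of DNA breaks, and DNPH1, which removes a damaged nucleotide from the pool. BARD1 knockdown gave responses of -2.55 ± 0.62 in the TEDC2 background and -3.66 ± 0.47 with non-targeting sgRNAs (SD, n = 4). Niraparib thus depleted BARD1 constructs in both backgrounds, by less in TEDC2-depleted cells, and the fitted difference was 1.16 ± 0.08 (SE; edgeR, adjusted p = 3.61e-16). As a mean of construct log2 ratios tested with limma, the BARD1 difference was smaller, at 0.65 (adjusted p = 8.73e-06). DNPH1 knockdown gave responses of -1.13 ± 0.09 in the TEDC2 background and -1.86 ± 0.10 with non-targeting sgRNAs, and FANCD2 knockdown gave -0.41 ± 0.05 in the TEDC2 background and -1.11 ± 0.15 with non-targeting sgRNAs. In neither did the backgrounds overlap. FANCB rose by 0.74 (adjusted p = 1.60e-13), DNPH1 by 0.73 (adjusted p = 5.13e-18), RBBP8 by 0.72 (adjusted p = 9.73e-12) and FANCD2 by 0.68 (adjusted p = 2.88e-14; edgeR for each). In the 2 lists of their pathways, 14 of 15 Fanconi anemia partners rose and none fell, with a median of 0.41. Of homologous recombination partners 13 of 26 rose and none fell, with a median of 0.14. Over all TEDC2 partners 14.6% rose and 28.0% fell. Grouped by response with non-targeting sgRNAs, all 22 partners below -1 rose. Between -1 and -0.5, 22 of 30 rose, and between -0.5 and -0.2, 32 of 66 rose, and none fell in these groups. Whether the 2 lists differ from partners of like response was not tested.

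The 5 partners whose response fell most were CAD (-0.72, adjusted p = 4.21e-05), HAUS1 (-0.64, adjusted p = 0.000324), CENPM (-0.58, adjusted p = 1.61e-11), TAF2 (-0.55, adjusted p = 9.43e-06) and RPF2, a ribosome assembly factor (-0.52, adjusted p = 0.000142; edgeR for each). Apart from RPF2 and CENPM they are also among the 12 highest growth differences, which share their reference libraries. CAD knockdown gave a response of 0.10 ± 0.31 in the TEDC2 background and 0.84 ± 0.33 with non-targeting sgRNAs. Its pairs with TEDC2 had 187 and 168 reads with niraparib in 2022 and 150 and 110 in 2023. At the reference endpoint they had 161 and 195, and 69 and 72. HAUS1 knockdown gave a response of -0.52 ± 0.19 in the TEDC2 background and 0.13 ± 0.15 with non-targeting sgRNAs. Neither fall was called on every subset of constructs: CAD was at -0.49 with the TEDC2 sgRNA in the second position only and at -0.58 with the first TEDC2 sgRNA alone, and HAUS1 at -0.43 with the second alone. CCNB1, lowest in growth, had a response difference of 0.04 that did not pass (edgeR, adjusted p = 0.62), and CENPF fell by 0.15 (edgeR, adjusted p = 0.0111).

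The response difference, too, followed the partner's own response. All 22 partners with an own response below -1 rose, with a median of 0.54, while of the 24 above 0.5 none rose and 22 fell, with a median of -0.30. Across partners, which share libraries, Pearson r between the difference and own response was -0.88 over all partners, and own response enters the difference itself.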

How the data were processed

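The deposited tables hold raw counts of reads per ordered sgRNA pair, all whole and without normalization. Per the submitters' processing notes Bowtie2 2.3.4.1 was used, in a role they do not give; counting rules are not given in the sources used here. Per the labels' protocols, cassettes were amplified by PCR and no molecular identifiers were named, so reads are not independent molecules. The authors' deposited phenotype scores were not used.

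Counts were summed over the 8 constructs of a gene pair. The offset was the log of the expected count: gene A with non-targeting times gene B with non-targeting over non-targeting pairs, in each library. Gene pairs with a mean T0 sum of at least 80 entered edgeR 4.0.16's quasi-likelihood test (R 4.3.3) with a block for each culture and 1 arm term shared by both screens. The Benjamini-Hochberg adjustment ran over 147144 pairs. Per the labels, the arms of a replicate were split from 1 culture after its T0 sample, so the replicate number pairs libraries; replicate differences over gene pairs correlated at 0.05 (2022) and 0.03 (2023) between reference and T0, and at 0.15 and 0.07 between niraparib and reference. Growth was reference minus T0 and response niraparib minus reference. Per-culture values are log2 ratios of sums, and single sgRNA combinations had 0.5 added. The median biological coefficient of variation was 4.70% in growth, with 3 residual degrees of freedom. Growth data were also simulated with a dispersion, the square of the coefficient of variation, of 0.01. That is above the dispersion of the data, and few pairs were changed. In that setting the fit recovered 100% of changes of 1, 76.5% of changes of -0.5 and 72.7% of 0.5. It recovered 3.03% of changes of -0.25 and 6.06% of 0.25, with 5 false calls among 147144 pairs. Because the setting differs, these shares do not give the recovery in the data. Alternatives used limma 3.58.1 and DESeq2 1.42.0. Promoter sequences came from RefSeq (GRCh38.p14), and 33 partners were given a current symbol.

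The members and gene lists were chosen with earlier results of these data known. Named partners were the 12 lowest and 12 highest called differences with 1 sign in all 4 cultures, all centriole, augmin, mitotic kinase, dynein and surveillance partners, the lowest and highest of each other list, the 6 lowest and 6 highest within the TEDC2 background, the 5 most alike profiles, the 5 lowest and 5 highest responses and the nearest gene. Others named (CCNB2, the cyclin, MuvB and phosphatase partners, the checkpoint residuals and the partners with higher residuals) were chosen after their values were seen. The result for 1 named partner is not reported here.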

Additional observations from a re-analysis of the deposited data

Results flagged for a closer look

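The CENPF growth difference of -0.647 in replicate 2 of the 2023 screen stood apart from the other 3 cultures, which lay between -0.55 and -0.54. The DNPH1 growth difference of -0.189 in the same culture stood apart from values of -0.05 to -0.02 in the other 3. Chance flags about 1 in 20 groups of 4 by this criterion. Over the fits that leave out 1 culture, CENPF ran from -0.58 to -0.55 and stayed called lower. DNPH1 was not called in growth.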

How the results depend on the processing

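Leaving out 1 culture in turn gave 15 to 19 partners lower and 281 to 295 higher in growth, and 120 to 133 that fell and 63 to 75 that rose in response. Without the replicate block the counts were 21 and 303 in growth and 148 and 80 in response. Lower partners in growth numbered 121 with TMM, 120 with median of ratios, 12 with the TEDC2 sgRNA in the second position only, 12 and 13 with its first or second sgRNA alone, and 183 by the curve, which called 5 higher. Partners that fell in response numbered 84 and 95 with TEDC2 in the first or second position only and 81 with its first sgRNA alone. Single positions and sgRNAs read fewer constructs, and the cause of the other changes was not tested. The fall in response was not called for CAD in the second position (-0.492) or with the first sgRNA (-0.576), nor for HAUS1 with the second sgRNA (-0.428). Profile likeness by the plain difference was 0.894 for PPP2R1A, 0.899 for CEP135, 0.147 for CENPF, 0.621 for PPP2R2A and 0.507 for UHRF1. Likeness by the residual in the 2022 cultures was 0.411 for PPP2R1A, 0.349 for CEP135, 0.404 for CENPF, 0.335 for PPP2R2A and 0.244 for UHRF1. By the residual in the 2023 cultures it was 0.338, 0.300, 0.290, 0.320 and 0.286 in that order.

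The sign of named growth differences turned under several settings. The residual from the curve is another quantity than the difference, because the trend with own growth is taken out of it. Its sign was opposite to that of the difference for KICS2 (0.083), MCM2 (-0.038), NOL6 (-0.086), DCTN3 (-0.166), TAF2 (-0.079), MICOS10 (-0.014), STIL (-0.226), CEP63 (-0.626), DCTN1 (-0.314), DCTN5 (-0.201), DYNLL1 (-0.071), DYNLRB1 (-0.023), AURKA (-0.605), BUB3 (-0.24), CDK1 (-0.284), HJURP (-0.32), SMC6 (-0.026), BARD1 (-0.012), WDR48 (-0.035), TSC1 (0.029), BMI1 (-0.037), UTP23 (-0.019), DNMT1 (-0.221), GEMIN2 (-0.264) and HSD17B12 (-0.291). With TMM the sign of the difference itself turned for DYNLL1 (-0.025), DYNLRB1 (-0.055), TP53BP1 (-0.03), AURKA (-0.087), CDK1 (-0.048), BMI1 (-0.056), HMGXB3 (-0.034) and COPS9 (-0.082). With median of ratios it turned for DYNLL1 (-0.024), DYNLRB1 (-0.054), TP53BP1 (-0.029), AURKA (-0.086), CDK1 (-0.047), BMI1 (-0.055), HMGXB3 (-0.033) and COPS9 (-0.081). With TEDC2 in the first position only it turned for CEP63 (-0.029), and in the second for MCM9 (0.017), FANCD2 (0.049), PCNA (0.023), TSC1 (0.042) and COPS9 (-0.023). With the first TEDC2 sgRNA alone it turned for PCNA (0.033) and TSC1 (0.007), and with the second for DYNLL1 (-0.032), DYNLRB1 (-0.03), AURKA (-0.018), FANCD2 (0.047) and COPS9 (-0.035). With the mean of construct log2 ratios it turned for PCNA (0.007). Leaving out 1 culture gave -0.081 to 0.098 for AURKA, -0.046 to 0.11 for CDK1, -0.056 to 0.006 for PCNA and -0.018 to 0.045 for COPS9. Of the other settings of named partners, 974 kept direction and side of the threshold, 40 fell below it and 18 passed it.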
